A study of Drosophila melanogaster with 12 samples.

Results

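Cytochrome P450 transcripts were followed in heads of adult Drosophila melanogaster of the strain cn bw, which carries mutations in the eye pigment genes cinnabar and brown, over the first 2 days after a temperature cycle had stopped. Members were taken by name, as every gene whose single current symbol starts with Cyp and a digit, with the probe set of highest mean signal standing for each gene. The rule found 83 of the 10843 genes that the array names with 1 symbol. Of these, Cyp1 and Cyp40 are cyclophilins, protein folding enzymes that only share the letters of the name, so the P450 family measured here comprised 81 genes. Cyp1 (mean 11.56 log2, permutation p = 0.105) and Cyp40 (mean 4.67 log2, permutation p = 0.156) are not described further. Of the 81, 4 had more than 1 probe set. P450 genes of ecdysone synthesis with other kinds of symbol, such as phtm and dib, are outside the name rule and are given separately.

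All 12 arrays held RNA of the same kind of flies. The flies had been kept in constant darkness, in a thermocycle of 12 h at 18 °C and 12 h at 25 °C, and were then held at constant 25 °C (ambient/ambient, AA). Approximately 100 to 200 heads were pooled for each collection, and the labels give neither the sex nor the age of the flies. The first collection was at AA2 and the last at AA46, with 4 h from one to the next, and AA0 marks the start of the subjective cryophase. The cryophase covers the 12 h that were cold during entrainment, and the thermophase covers the 12 h that were warm. Day 2 (AA26 to AA46) and day 1 (AA2 to AA22) had 6 arrays each, and each of the 6 times of day had 1 array of each day. Nothing in the labels says that the collections came from separately reared flies, so a p-value here reflects only how the arrays scattered, which may be in part technical.

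P450 enzymes are haem proteins that insert an oxygen atom into small, mostly fat-soluble molecules, with electrons passed on from a reductase. In insects they break down plant toxins and insecticides and also make or clear hormones, pheromones and cuticle lipids. They fall into 4 clans. The CYP3 and CYP4 clans hold most of the detoxification enzymes, the CYP2 clan holds several developmental enzymes, and the mitochondrial clan takes its electrons from a ferredoxin. In the fly many of them are expressed in gut, Malpighian tubule and fat body, and the head contains fat body, cuticle-forming cells, antennae, eyes and brain.

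The 81 genes were 37 of the CYP3 clan, 32 of the CYP4 clan, 8 of the mitochondrial clan and 4 of the CYP2 clan. By chromosome, 33 lie on 2R, 15 on 3R, 14 on X, 13 on 2L and 6 on 3L, as the RefSeq gene table gives them. Of the 81, 69 passed the study's filter on low signal, which asks for more than 50% of a probe set's values above the 20th percentile of the array (4.05 to 4.12 log2 here). All 69 were above that cut-off on all 12 arrays, and the lowest mean of a tested gene was 4.26 log2, against a highest of 4.07 log2 among the genes that did not pass. The other 12 were described but not tested, and 9 of them were below the cut-off on all 12 arrays. These 12 were Cyp6a18, Cyp6a19 and Cyp310a1 of the CYP3 clan, Cyp4d14, Cyp4p1, Cyp312a1, Cyp313a2, Cyp313a3, Cyp313a5 and Cyp316a1 of the CYP4 clan, and Cyp301a1 and Cyp49a1 of the mitochondrial clan.

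Signals are RMA log2 values, and because each probe set binds its target with its own strength, the order of signals between genes is no order of RNA amounts. Means over 12 arrays ran from 2.32 log2 for Cyp316a1 to 10.93 log2 for Cyp6d5, with a median of 6.19 log2. Among the 81 genes, 19 had a mean in the top 10% of all probe sets. The highest means were those of Cyp6d5, Cyp28d1 (10.78), Cyp313a1 (10.29), Cyp9f2 (10.14) and Cyp6g1 (9.93). The lowest belonged to Cyp316a1, Cyp313a5 (2.53), Cyp313a2 (2.67), Cyp310a1 (2.83) and Cyp312a1 (3.23), all below the filter. Most members varied little over the time course: the difference between the highest and the lowest array had a median of 0.379 log2 over the 69 tested genes and 0.334 log2 over all 11156 tested probe sets. It ran from 0.152 log2 in Cyp4ad1 to 1.399 log2 in Cyp4d21.

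The AA46 array was unlike the rest, with a mean correlation with the other arrays of 0.992 across probe sets, against at least 0.996 elsewhere, and with 18S rRNA control signals of 4.09 log2, against 2.78 to 2.99 log2. For the P450 genes, adjusted calls, the count at an unadjusted permutation p under 0.05, and named genes whose call changed without AA46 are given both ways. Results of other named genes, such as cell type markers and genes of haem synthesis, are given with AA46 only. Whether their calls depend on that array was not tested. Array medians lay between 5.64 and 5.67 log2.

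The time-of-day comparison asked which P450 transcripts followed a 24-h profile after entrainment by temperature. The score was F24, the part of a gene's variance over the 12 arrays that lies in a 24-h cosine, with a permutation p from 100000 random time orders. After Benjamini-Hochberg adjustment over all 11156 tested probe sets, none of the 69 genes was called (adjusted p under 0.05), and 0% of all tested probe sets were. At an unadjusted permutation p under 0.05, 10 of 69 were counted, against 6.15% of all tested probe sets. Of the 69, 7 were counted with a fitted peak in the subjective cryophase, against 2.94% of all tested probe sets. The other 3 of the 10 had it in the subjective thermophase. Of the 686 tested probe sets counted over the whole array, 328 had it in the cryophase and 358 in the thermophase. By a limma cosinor F test, in which the spread is shared between probe sets, 2 genes passed after adjustment, Cyp4d21 (adjusted p = 0.0224) and Cyp305a1 (adjusted p = 0.0497), against 0.296% of all tested probe sets. Neither of these limma calls held in all leave-outs of a single array: Cyp4d21 was called in 5 of 12 and Cyp305a1 in 2 of 12, and 6 of the 12 left no P450 gene called. Without AA46, 4 genes were called by limma, Cyp4d21, Cyp305a1, Cyp6a21 and Cyp12d1-d. Limma calls over the whole array rose as well, to 78 of 11156 tested probe sets, against 33 with AA46. Without AA46, 11 of 69 had an unadjusted permutation p under 0.05, against 7.25% of all tested probe sets.

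**Figure D1:**
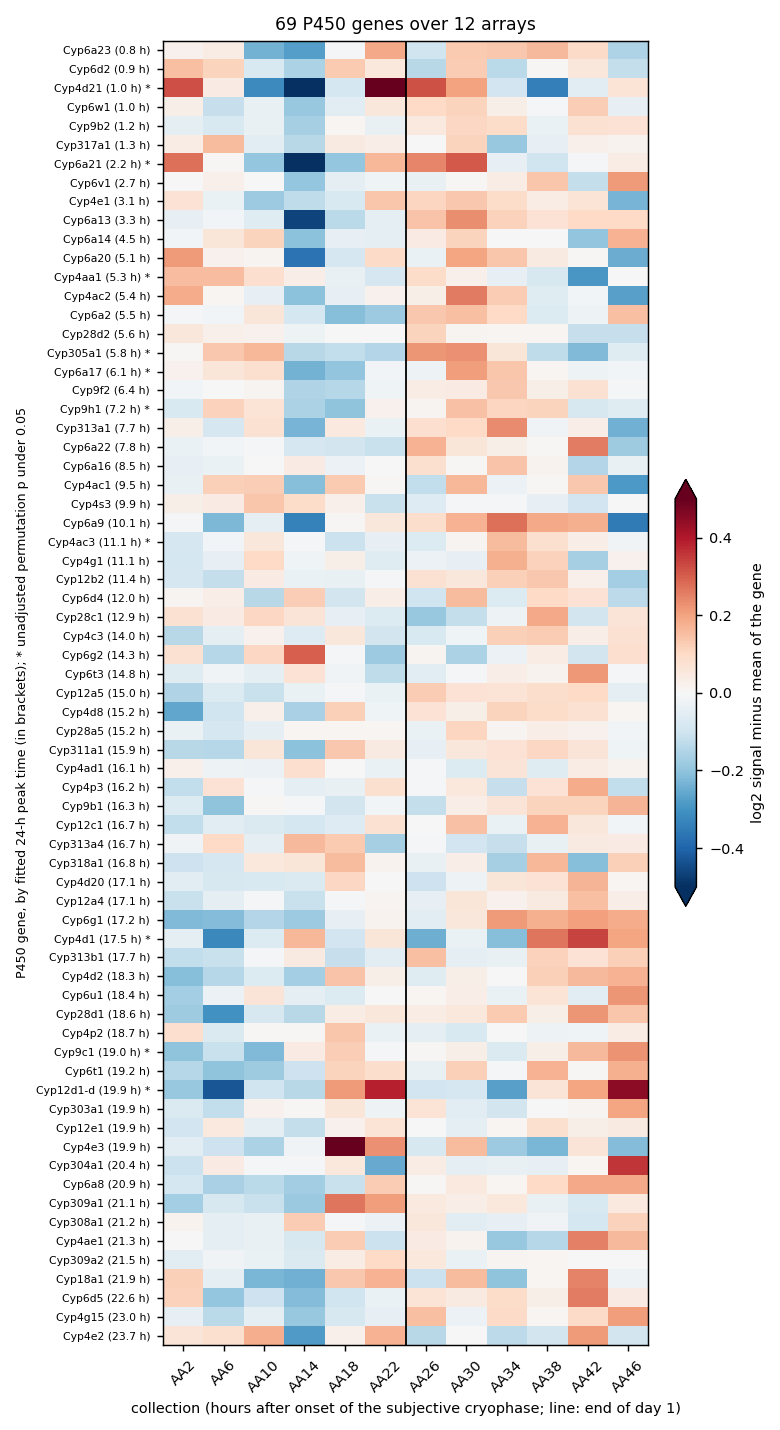
Log2 signal minus the mean of the gene (colour scale from -0.5 to 0.5 log2) for the 69 tested P450 genes (rows, by fitted peak time) on the 12 arrays (columns, by collection time). The largest swings are those of Cyp4d21, and AA14 is the lowest array for 21 of the 69 genes.

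Cyp4d21, also known as sex-specific enzyme 1 and expressed in the head fat body of males, had the largest amplitude of the family. Its signal was 8.04, 7.76, 7.40, 6.995, 7.63 and 8.39 log2 from AA2 to AA22, and 8.04, 7.92, 7.62, 7.38, 7.66 and 7.79 log2 from AA26 to AA46. The lowest value of both days fell 14 h after the onset of the cryophase, and the highest lay at AA22 on day 1 and at AA26 on day 2. The fitted peak was at 0.99 h (SE 0.74 h) with a peak-to-trough ratio of 1.81, and F24 was 0.75 (permutation p = 0.00071, adjusted p = 0.308, n = 12). Without AA46 the permutation p was 0.0005. Among 6 fat body markers, only Apoltp, a lipid transfer protein, had a permutation p under 0.05, against 6.15% of all tested probe sets. Its permutation p was 0.0488 (adjusted p = 0.806, ratio 1.23, peak at 3.96 h). In Yp1, Yp2, Yp3, Lsp2 and apolpp the permutation p lay between 0.234 (Lsp2) and 0.592 (Yp1). The part of fat body RNA in these profiles was not tested. In whole heads, fewer cells of a type and less RNA per cell cannot be told apart.

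Cyp305a1, a CYP2 clan gene, peaked in the middle of the subjective cryophase and had the highest F24 of the family, 0.83. Values were 8.38, 8.51, 8.55, 8.24, 8.26 and 8.23 log2 from AA2 to AA22, then 8.60, 8.61, 8.44, 8.25, 8.16 and 8.32 log2 from AA26 to AA46. All 6 cryophase arrays were above all 6 thermophase arrays. The ratio was 1.31 and the peak at 5.84 h (SE 0.58 h; permutation p = 0.00144, adjusted p = 0.308).

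Cyp6a21, a CYP3 clan gene, resembled Cyp4d21 in its time course. Its signal was 6.09, 5.82, 5.62, 5.32, 5.62 and 5.99 log2 from AA2 to AA22 and 6.06, 6.12, 5.78, 5.72, 5.81 and 5.85 log2 from AA26 to AA46. The trough again fell 14 h after the onset of the cryophase on both days. The fitted ratio was 1.45 with a peak at 2.15 h (SE 0.82 h; permutation p = 0.00251, adjusted p = 0.366).

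Cyp12d1-d, a mitochondrial P450 that insecticides and barbiturates induce, was the member with the largest amplitude among those that peaked in the thermophase. It read 9.46, 9.22, 9.55, 9.51, 9.86 and 10.04 log2 from AA2 to AA22 and 9.55, 9.56, 9.38, 9.71, 9.85 and 10.10 log2 from AA26 to AA46. The highest array of each day was the one at 22 h, the second of which is AA46. The ratio was 1.53 and the peak at 19.85 h (SE 0.78 h; permutation p = 0.00367, adjusted p = 0.418), and the permutation p was 0.00676 without AA46. The fly genome holds a near-identical copy of this gene, Cyp12d1-p, which had no probe set of its own here, so the signal may come from either gene. Cyp4d21, Cyp305a1, Cyp6a21 and Cyp12d1-d had an unadjusted permutation p under 0.05 in all 22 alternative settings of that test.

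The other 6 genes had ratios of 1.11 to 1.33, and each lost the unadjusted threshold in 3 or more of those settings. Fitted peaks lay in the cryophase for Cyp4aa1 (ratio 1.18, 5.25 h, permutation p = 0.0198), Cyp6a17 (1.18, 6.10 h, permutation p = 0.029), Cyp9h1 (1.17, 7.16 h, permutation p = 0.0432) and Cyp4ac3 (1.11, 11.10 h, permutation p = 0.0321). That of Cyp4ac3 was near the end of the phase (SE 1.20 h), and its fit on day 2 alone peaked at 12.07 h. Cyp6a17 is a gene that temperature preference of flies depends on, and its lowest values, 8.17 and 8.21 log2, were those of AA14 and AA18. In the thermophase peaked Cyp4d1 (ratio 1.33, 17.49 h, permutation p = 0.0394) and Cyp9c1 (1.20, 19.04 h, permutation p = 0.0453). Cyp4d1 kept a p under 0.05 in 2 of 12 leave-outs, Cyp9c1 in 3, Cyp9h1 in 4, Cyp4ac3 in 7, Cyp6a17 in 8 and Cyp4aa1 in 10. Without AA46 alone, the permutation p was 0.0562 for Cyp4d1, 0.0665 for Cyp9h1 and 0.0811 for Cyp9c1. In turn, 4 other genes had a permutation p under 0.05 only without AA46: Cyp6a14 (p = 0.0247), Cyp6a2 (p = 0.028), Cyp28d2 (p = 0.0379) and Cyp4c3 (p = 0.0443). Just outside the threshold lay Cyp4d20 (permutation p = 0.0542), with a peak at 17.12 h.

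**Figure D2:**
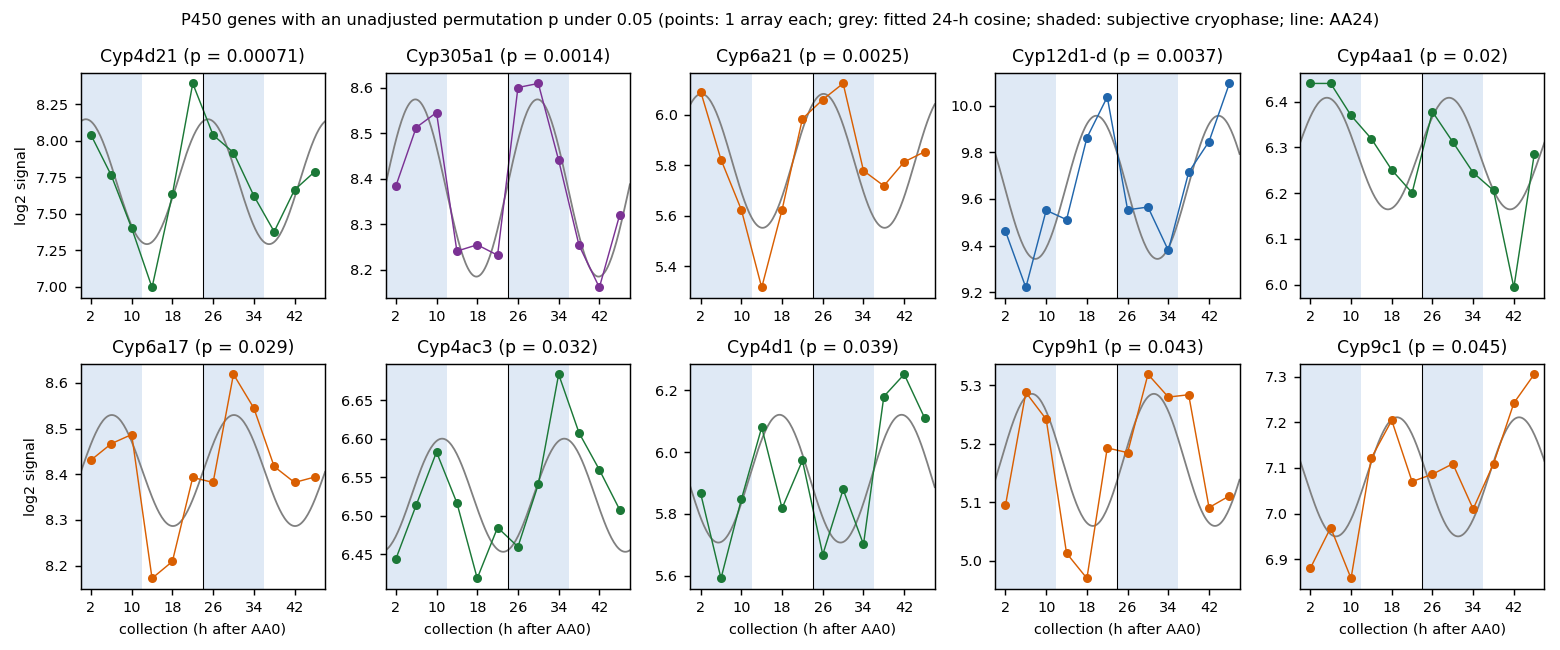
Log2 signal against collection time (hours after AA0) for the 10 P450 genes with an unadjusted permutation p under 0.05, 1 point per array, with the fitted 24-h cosine in grey and the subjective cryophase shaded. Cyp4d21 and Cyp6a21 reach their trough at AA14 and AA38, and Cyp12d1-d is highest at AA22 and AA46.

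When the mean of each day was taken out of every gene, 17 of 69 had a permutation p under 0.05, against 9.75% of all tested probe sets, and none passed after adjustment. Fitted on each day alone, the 10 genes had peaks that lay 0.321 h (Cyp4d1) to 3.12 h (Cyp6a17) apart between day 2 and day 1, which is not independent of their low p. Over all 69 genes, the gap between the peaks of day 2 and day 1 was at most 4 h in 31 genes, or 44.9%, against 28.2% of all tested probe sets, and its median was 4.44 h against 6.78 h.

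Across the whole family, fitted peaks fell in both phases: 30 of 69 lay in the cryophase (43.5%, against 44.4% of all tested probe sets) and 39 in the thermophase, and 28 and 41 did without AA46. The median ratio was 1.09, against 1.07 over all tested probe sets, and the median F24 was 0.20 against 0.13. Subfamilies differed in their count of fitted peaks, which are a description of fits that mostly did not pass the test. In Cyp6a, 10 of 11 tested genes had a fitted peak in the cryophase, and Cyp6a8 (20.86 h) was the exception. Without AA46 it was 8 of 11, since Cyp6a9 (21.80 h) and Cyp6a23 (23.09 h) then also peaked in the thermophase. In Cyp4d, 4 of 5 peaked in the thermophase, from 15.15 h (Cyp4d8) to 18.26 h (Cyp4d2), and Cyp4d21 alone peaked in the cryophase. In the Cyp12 family, 5 of 6 peaked in the thermophase (6 of 6 without AA46), with ratios other than that of Cyp12d1-d between 1.02 (Cyp12c1) and 1.09 (Cyp12b2).

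**Figure D3:**
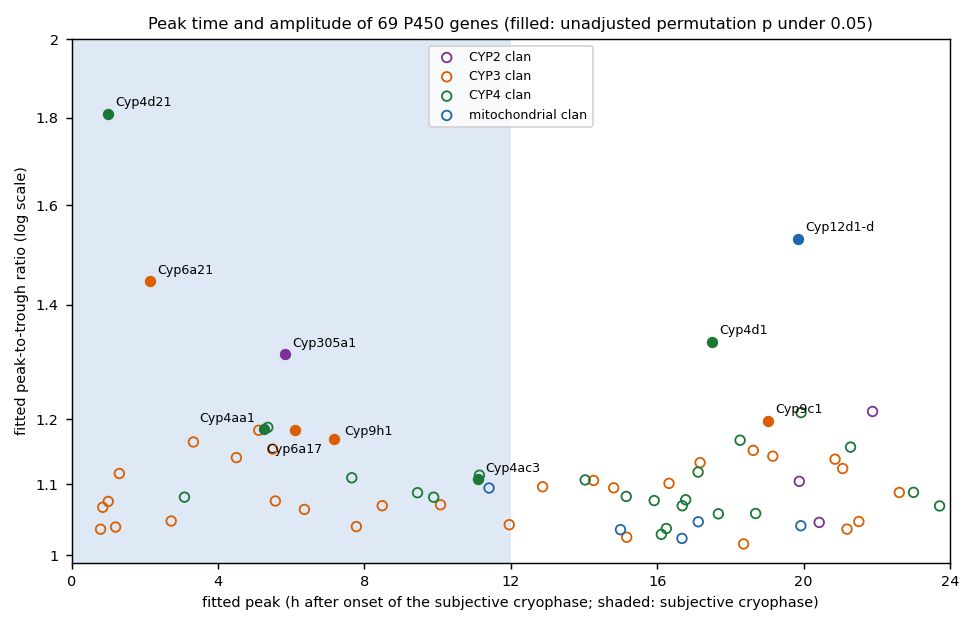
Fitted peak-to-trough ratio (log axis) against fitted peak time (h, counted from AA0) for the 69 tested P450 genes, coloured by clan, filled where the unadjusted permutation p was under 0.05. The largest ratio, 1.81, is that of Cyp4d21 in the cryophase, and 1.53 is that of Cyp12d1-d in the thermophase.

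Among members with a known role that were not counted as rhythmic, Cyp18a1, which inactivates the moulting hormone ecdysone, had a ratio of 1.21 with a peak at 21.88 h (SE 1.65 h; permutation p = 0.126). It read 6.31, 6.14, 5.96, 5.95, 6.32 and 6.36 log2 from AA2 to AA22 and 6.08, 6.35, 5.99, 6.20, 6.44 and 6.17 log2 from AA26 to AA46, with the lowest arrays at AA34 and AA26 on day 2 and at AA14 and AA10 on day 1. Cyp4g1, the oenocyte enzyme for the last step of cuticular hydrocarbon synthesis, lay between 4.74 and 5.08 log2 (ratio 1.11, permutation p = 0.132). Cyp303a1, needed for bristle structure, lay between 5.24 and 5.56 log2 (permutation p = 0.11), and Cyp6t3, an ecdysone synthesis gene of the larval prothoracic gland, between 5.65 and 5.997 log2 (permutation p = 0.157). Cyp301a1, which acts in cuticle formation, stayed between 3.56 and 4.04 log2, below the filter, as did Cyp49a1 between 3.79 and 4.09 log2. Cyp4c3 (ratio 1.11, peak 14.03 h, permutation p = 0.112, and 0.0443 without AA46), Cyp313a1 (1.11, 7.66 h, permutation p = 0.449) and Cyp12a4, tied to lufenuron resistance (1.05, 17.12 h, permutation p = 0.607), completed this set.

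The comparison of day 2 with day 1 asked whether levels shifted as the flies spent longer at constant 25 °C. It was fitted by limma with time of day as a block, and differences are day 2 minus day 1 in log2. Transcripts of 2 P450 genes rose on day 2, Cyp6g1 and Cyp6a13, and none fell: higher calls were 2 of 69, against 0.412% of all tested probe sets, and lower calls 0 of 69, against 1.2%. At an unadjusted limma p under 0.05, 17 of 69 were higher on day 2, against 7.5% of all tested probe sets, and 0 of 69 were lower, against 7.26%. This rested in part on AA46. Without it, Cyp4aa1 (-0.14 log2), Cyp6g2 (-0.11), Cyp313a4 (-0.11) and Cyp4s3 (-0.11) were lower at that threshold, and more P450 genes were higher. The share of all tested probe sets at that threshold is not given without AA46. A change of the family therefore cannot be told here from one of the whole array. Adjusted calls higher on day 2 rose over the whole array too, to 170 of 11156 tested probe sets without AA46, against 46 with it. The fitted difference was above 0 in 54 of 69 (78.3%, against 51.1% of all tested probe sets), with a median of 0.07 log2, against 0.00 log2. At all 6 times of day, 11 of 69 genes were higher on day 2, against 5.38% of all tested probe sets, and none was lower at all 6, against 4.4%.

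Cyp6g1, whose overexpression gives resistance to DDT and neonicotinoids, had the largest difference. It read 9.88, 9.99, 10.14, 10.11, 10.14 and 10.12 log2 on day 2 and 9.71, 9.72, 9.79, 9.75, 9.89 and 9.95 log2 on day 1, in the order of the times of day from 2 to 22 h. Day 2 was higher at 6 of 6 times of day, although the ranges overlapped, since AA26 lay below AA18 and AA22. The difference was 0.26 log2 (SE 0.05), or 1.20-fold, with a limma adjusted p of 0.0165. It remained between 0.24 and 0.28 log2 when single arrays were left out, while the adjusted p ranged from 0.00729 without an array of 22 h to 0.0722 without an array of 14 h, and was under 0.05 in 4 of 12 leave-outs.

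Cyp6a13, of the CYP3 clan, read 9.14, 9.23, 9.12, 9.07, 9.10 and 9.10 log2 on day 2 and 8.96, 8.99, 8.94, 8.54, 8.87 and 8.95 log2 on day 1. Every day 2 array was above every day 1 array, and AA14, at 8.54 log2, was far below the rest of day 1. The difference was 0.25 log2 (SE 0.06), or 1.19-fold, with a limma adjusted p of 0.046, and it was 0.20 log2 (limma adjusted p = 0.115) without AA14. In all, the call held in 2 of 12 leave-outs, those of AA22 and AA46.

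**Figure D4:**
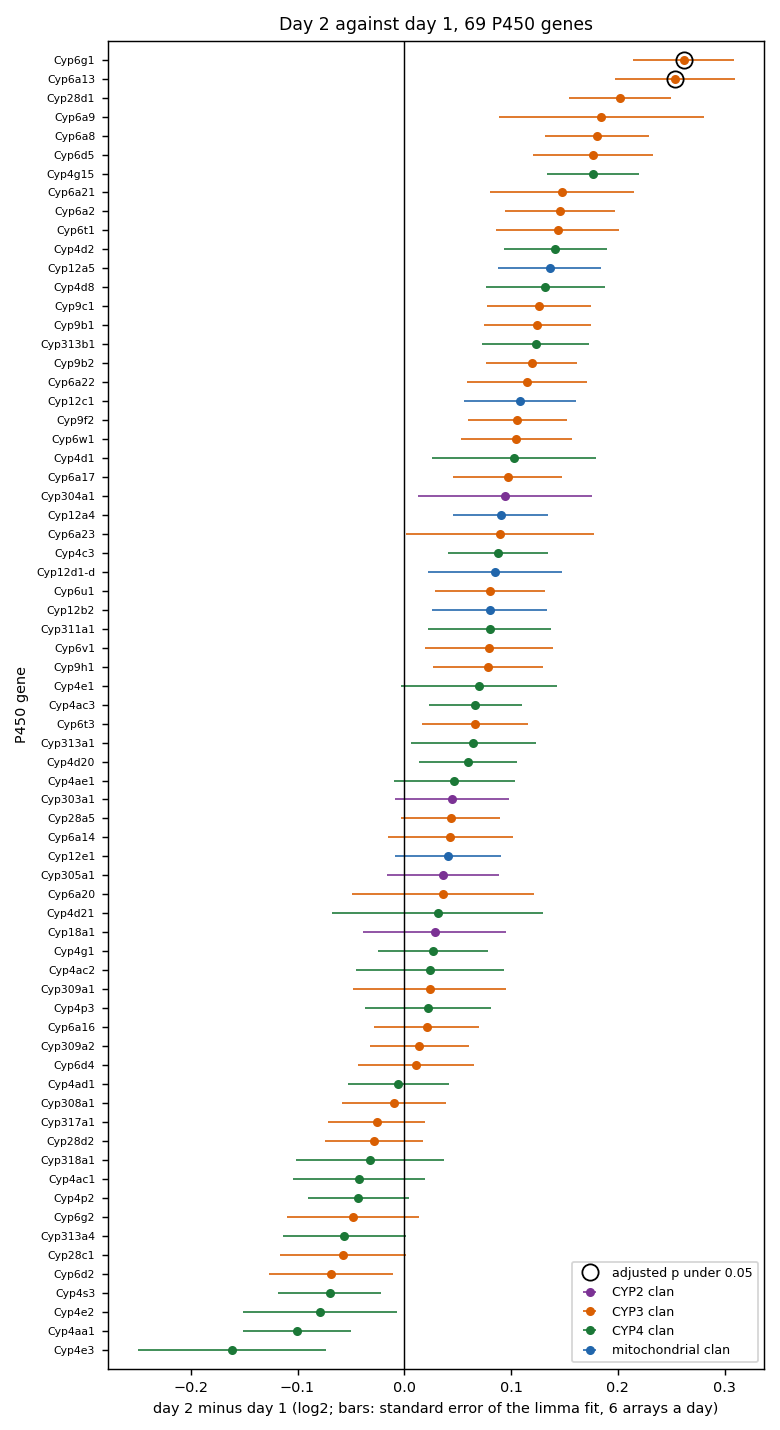
Day 2 minus day 1 (log2, with the standard error of the limma fit) for the 69 tested P450 genes, coloured by clan and sorted by size, with a ring around the genes with an adjusted p under 0.05. In all, 54 points lie above 0, and the ringed genes are Cyp6g1 at 0.26 and Cyp6a13 at 0.25.

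The next largest differences did not pass the limma test. Cyp28d1, which plant alkaloids such as nicotine induce, had a day 2 mean of 10.88 ± 0.08 log2 and a day 1 mean of 10.68 ± 0.14 log2 (SD, n = 6 arrays each), a difference of 0.20 log2 (limma adjusted p = 0.063) that was higher at 6 of 6 times of day. Cyp4g15, a paralogue of Cyp4g1 expressed in the nervous system, read 9.67, 9.49, 9.61, 9.53, 9.61 and 9.72 log2 on day 2 and 9.48, 9.38, 9.47, 9.33, 9.44 and 9.48 log2 on day 1, a difference of 0.18 log2 (limma adjusted p = 0.0711). Every day 2 array of Cyp4g15 was above every day 1 array, as in Cyp6a13, and 1% of all tested probe sets were separated in this direction. Cyp6a8, which caffeine and barbiturates induce, differed by 0.18 log2 (limma adjusted p = 0.0938), and Cyp6d5 and Cyp6a2, a gene linked to DDT resistance, by 0.18 log2 (adjusted p = 0.15) and 0.15 log2 (adjusted p = 0.2) in the same fit. Cyp6a9 differed by 0.18 log2 (limma adjusted p = 0.414) and was lowest at AA46: it read 7.44, 7.52, 7.62, 7.54 and 7.53 log2 from AA26 to AA42 and 6.996 log2 at AA46. Without AA46, and equally without AA22, 5 genes were called higher on day 2: Cyp6a9 (0.30 log2, limma adjusted p = 0.0169), Cyp28d1, Cyp6a8, Cyp6g1 and Cyp6a13. This fit cannot tell which of these arrays made the difference. Calls higher on day 2 also rose over the whole array, to 170 of 11156 tested probe sets without AA46, against 46 with it.

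On the lower side, Cyp4e3 had the lowest difference, -0.16 log2 (limma adjusted p = 0.44), with 8.27, 8.51, 8.17, 8.12, 8.41 and 8.13 log2 on day 2 and 8.29, 8.24, 8.19, 8.33, 8.94 and 8.58 log2 on day 1. The difference rested mainly on AA18 and AA22 of day 1, the highest arrays of the gene. Cyp4aa1 (-0.10 log2, limma adjusted p = 0.394), Cyp4e2 (-0.08 log2, 0.688), Cyp4s3 (-0.07 log2, 0.568) and Cyp6d2 (-0.07 log2, 0.663) followed.

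By clan, the fitted difference was above 0 in 28 of 34 genes of CYP3, 16 of 25 of CYP4, 6 of 6 mitochondrial genes and 4 of 4 of CYP2. The share over all tested probe sets was 51.1%, and the clans and subfamilies were not tested as groups. Within CYP3, the difference was above 0 in 11 of 11 Cyp6a genes, with a median of 0.12 log2, and in 5 of 5 Cyp9 genes, also with a median of 0.12 log2. Within CYP4, it held for 5 of 5 Cyp4d genes (median 0.10 log2) and 1 of 3 Cyp4e genes (median -0.08 log2). Cyp9b2 had another probe set, of far lower signal (4.38 log2 against 9.58 log2), whose day difference was -0.03 log2, against 0.12 log2 for the one used. Cyp9f2 had another probe set of nearly the same signal (10.05 log2 against 10.14 log2), whose day difference was 0.02 log2 (limma adjusted p = 0.877), against 0.11 log2 (limma adjusted p = 0.315) for the one used. For the 24-h rhythm, that other probe set had a permutation p of 0.0512 (peak at 6.89 h), against 0.463 (6.36 h) for the one used.

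Day 1 held a low point of the family. AA14 was the lowest of the 12 arrays for 21 of 69 P450 genes, or 30.4%, against 10.01% of all tested probe sets, among them Cyp4d21, Cyp6a13, Cyp6a20, Cyp6a21 and Cyp4e2. The mean deviation of the 69 genes from their own means was -0.10 log2 at AA14, between -0.05 and 0.02 log2 on the other day 1 arrays and between 0.01 and 0.06 log2 on day 2, while over all tested probe sets it was -0.00 log2 at AA14. At the time of day of AA14, 54 of 69 genes were higher on day 2 (78.3%, against 48.9% of all tested probe sets), and at the other times between 40 (22 h) and 52 (6 h) were. Without the 14 h arrays, 50 of 69 differences were above 0, and no gene was called.

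Some transcripts listed as markers of cell types or organs also differed between days. Over all tested probe sets, 0.412% were called higher on day 2 and 1.2% lower. Of 4 photoreceptor markers, 2 were called higher on day 2 (trp 0.23 log2, inaD 0.23 log2, limma adjusted p = 0.0238 and 0.0342). Arr1 (0.04 log2) and Arr2 (0.09 log2) were not called. The summed level of the 4 was 14.26 to 14.36 log2 on day 2 and 14.13 to 14.28 log2 on day 1. Fat body markers had 1 of 6 called down (Yp2, -0.23 log2, limma adjusted p = 0.046). The others ran from -0.20 (Yp3) to 0.06 log2 (Lsp2). Sums were 15.67 to 15.91 log2 on day 2 and 15.82 to 15.95 log2 on day 1. Digestive markers had 1 of 7 called up (Amy-d, 0.37 log2, limma adjusted p = 0.00465). The others ran from -0.04 (Jon25Bii) to 0.08 log2 (Jon66Ci). Sums were 9.83 to 10.09 log2 on day 2 and 9.66 to 9.87 log2 on day 1. Malpighian tubule, reproductive, neuronal and glial markers had no call, and their sums, like those of the sets above, overlapped between days: 9.78 to 10.24 log2 on day 2 against 10.05 to 10.19 log2 on day 1 for the tubule, 8.61 to 8.89 against 8.66 to 8.72 log2 for reproductive markers, 7.83 to 8.08 against 7.83 to 8.14 log2 for neurons and 11.15 to 11.95 against 11.60 to 11.84 log2 for glia. The lowest tubule and glial sums and the highest photoreceptor, digestive and reproductive sums were those of AA46. The defining markers elav, NaPi-T, Acp26Aa, Acp36DE, Acp53Ea and dj were below the filter. The part of these markers in the P450 differences was not tested.

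Whether the 24-h profile itself differed between days was tested as the interaction of day with the cosine and sine. By limma, none of the 69 genes was called, as 0% of all tested probe sets were, and 9 of 69 had an unadjusted p under 0.05, against 9.38% of all tested probe sets. The lowest values in that test were those of Cyp6a23, Cyp6a20, Cyp4d21, Cyp6a9 and Cyp4e1, with limma adjusted p-values of 0.499 to 0.499.

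Cyp6a23 ran in opposite directions on the days. It read 5.22, 5.45, 5.45, 5.48, 5.41 and 5.16 log2 on day 2 and 5.34, 5.35, 5.08, 5.04, 5.31 and 5.50 log2 on day 1. Fitted alone, day 2 had its peak at 11.6 h, and day 1 had it at 23.9 h. Without AA42 this difference was called (limma adjusted p = 0.0392, 1 of 12 leave-outs). In that setting 149 of 11156 tested probe sets were called, against 0 over all arrays. Cyp6a20, a gene of male aggressive behaviour, read 8.79, 9.03, 8.97, 8.87, 8.83 and 8.58 log2 on day 2 and 9.04, 8.85, 8.84, 8.46, 8.74 and 8.92 log2 on day 1, with a fitted peak at 9.3 h for day 2, against 2.1 h for day 1. In Cyp4d21, the fitted swing from peak to trough was 0.58 log2 for day 2, against 1.18 log2 for day 1. Over the family, the peak-to-trough difference was larger on day 2 in 31 of 69 genes (64.4% of all tested probe sets).

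**Figure D5:**
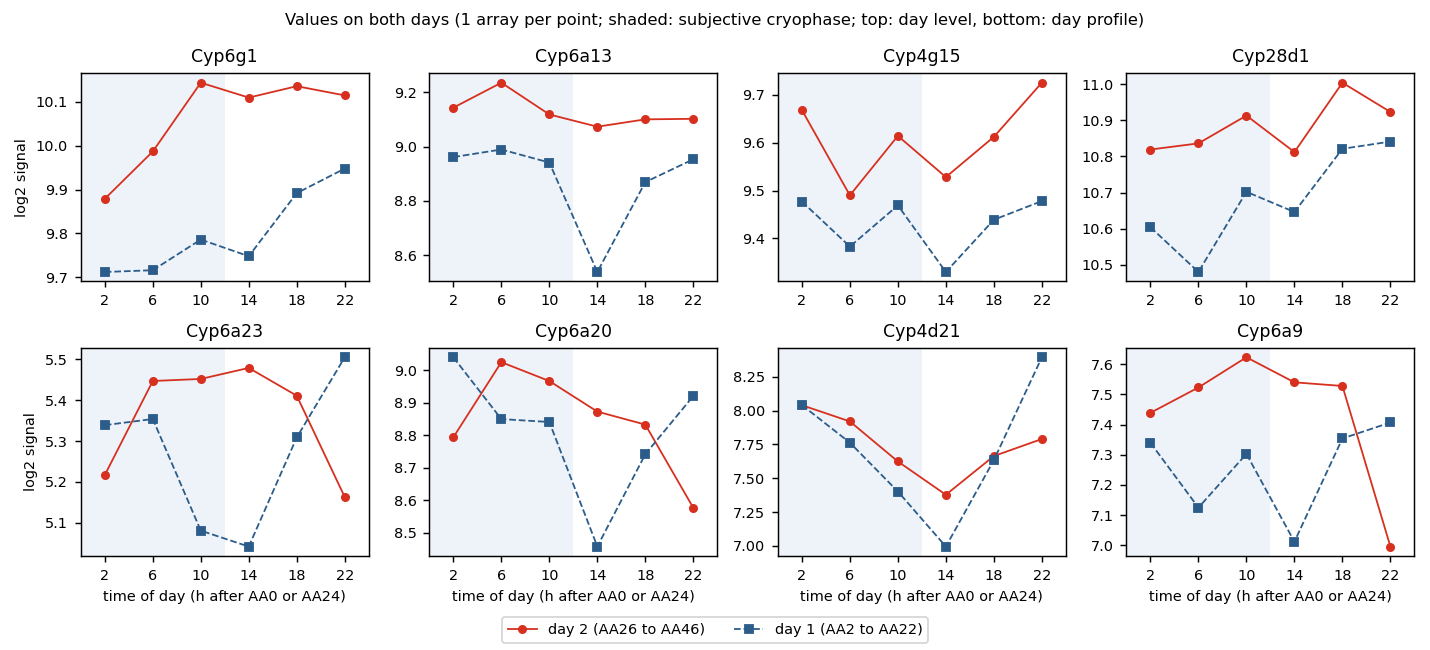
Log2 signal against time of day (hours after AA0 or AA24) on day 2 (red circles) and day 1 (blue squares), 1 array per point. The top row shows Cyp6g1, Cyp6a13, Cyp4g15 and Cyp28d1, 4 of the 11 genes that were higher on day 2 at all 6 times of day. The bottom row shows 4 genes named for their day profile. In Cyp6a23 the curves cross, with day 2 highest at 14 h where day 1 is lowest.

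Many of these genes are neighbours. In the RefSeq gene order, 44 of the 81 lay in 15 groups with at most 3 places from one P450 gene to the next. The largest holds 9 genes on 2R (Cyp6a22, Cyp6a17, Cyp6a23, Cyp6a19, Cyp6a9, Cyp6a20, Cyp6a21, Cyp6a8 and Cyp317a1), of which 8 were tested and 7 were above 0 for the day difference. Correlations between these genes over the 12 arrays ranged from -0.12 (Cyp6a9 and Cyp317a1) to 0.75 (Cyp6a17 and Cyp6a20), with a median of 0.38, against 0.12 over all 2346 pairs of tested P450 genes. They are given as a description, since all pairs share the same arrays and neighbouring paralogues may share probe signal. The neighbours Cyp309a1 and Cyp309a2 had the highest correlation in any group, 0.84, and other neighbours went opposite ways, with -0.58 for Cyp4p2 and Cyp4p3 and -0.50 for Cyp28d1 and Cyp28d2.

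Of 6 listed redox partners, 4 were measured and tested: Cyt-b5 and Cyt-b5-r, cytochrome b5 and its reductase, and the ferredoxins Fdx1 and Fdx2. None had a permutation p under 0.05 for rhythm and none was called between days by limma, where their differences ran from -0.12 (Fdx2) to 0.12 log2 (Cyt-b5-r). Of 6 measured genes of haem synthesis, none had a permutation p under 0.05, and 1 was called higher on day 2, against 0.412% of all tested probe sets. This was Coprox, the coproporphyrinogen oxidase, which differed by 0.20 log2 (limma adjusted p = 0.046). It read 7.65, 7.62, 7.68, 7.73, 7.73 and 7.81 log2 on day 2 and 7.42, 7.37, 7.59, 7.49, 7.58 and 7.54 log2 on day 1. All day 2 arrays of Coprox were above all day 1 arrays, as in 1% of all tested probe sets. Alas, the rate-limiting enzyme of the pathway, differed by 0.13 log2 (limma adjusted p = 0.208). Of the ecdysone synthesis P450 genes, which work mainly in the larval prothoracic gland and the ovary, phtm, dib, sad and shd were tested and spo was below the filter. None of the 4 had a permutation p under 0.05 or a limma call, and their ratios were 1.03 to 1.07. Of 10 regulators of P450 transcription, 8 were tested, with no permutation p under 0.05 and no limma call. Hr96, a xenobiotic receptor, and ss, a partner of tgo, were below the filter, and cnc, the fly counterpart of Nrf2, differed by -0.03 log2 between days.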

How the data were processed

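The deposited values are log2 expression levels from 12 Affymetrix Drosophila Genome 1 arrays, 1 per collection, which the authors computed with RMA (background correction, quantile normalization, median polish). The RMA version was not given in the sources used here. This quantile normalization hides changes shared by most transcripts and compresses extreme signals. The number of arrays limits the precision. Symbols came from the platform annotation, updated by gene identifier to RefSeq (Release 6 plus ISO1 MT): of 13966 non-control probe sets, 12442 had 1 symbol (12393 updated, 49 kept), 327 several and 1197 none. No coordinates or sequences are given.

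Day 1 and day 2 were used as replicates of a time of day, since the labels number none. F24 and its permutation p (100000 random time orders; smallest possible 1e-05) used numpy 2.4.6 under Python 3.11.15. Peak, ratio and SE are those of the least-squares cosine. The day and interaction tests used limma 3.58.1 (lmFit, eBayes) in R 4.3.3. P-values were adjusted over 11156 tested probe sets by the Benjamini-Hochberg method, and the procedures were tested on simulated data. Alternatives comprised a limma cosinor test, other blocks, filters, normalizations, scales and periods, array weights and leaving out arrays.

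Genes named were those with an unadjusted rhythm p under 0.05, day calls, the 5 largest day differences each way, the 5 lowest interaction p-values, the 5 highest and lowest means, and genes with a known role or in the study's lists, some of which were chosen on these arrays. Other genes are named only to give a range, a count or a subfamily. Members, lists and tests were chosen with earlier results of these data known.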

Additional observations from a re-analysis of the deposited data

Results flagged for a closer look

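Within a day, the highest or lowest of 6 arrays stood far from the nearest other array in 13 of 138 sets of values (69 genes on 2 days), where chance gives about 1 in 20, or 6.9. Of these, 5 were on AA46. The lowest value of day 2 was that of AA46 in Cyp12a5 (6.40 log2, next 6.51), Cyp12b2 (8.31, next 8.51), Cyp4e1 (6.56, next 6.83) and Cyp6a9 (6.996, next 7.44), and the highest was that of AA46 in Cyp304a1 (5.35, next 5.03). AA42 was the highest array of day 2 in Cyp6d5 (11.18 log2, next 11.02) and Cyp6t3 (5.997, next 5.82). AA14 was the lowest array of day 1 in Cyp4e2 (9.22 log2, next 9.53), Cyp6a13 (8.54, next 8.87) and Cyp6v1 (6.39, next 6.54) and the highest in Cyp308a1 (5.88, next 5.77). AA22 was the highest array of day 1 in Cyp12c1 (5.22 log2, next 5.09) and Cyp6a8 (7.44, next 7.22).

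Cyp6a16 was higher on day 2 at all cryophase times, by 0.10 log2 on average, and lower at all thermophase times, by -0.06 log2 on average. This difference between phases was not tested.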

How the results depend on the processing

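With 1 array per time and day, small changes of single genes are hardly resolved, and 12 of 81 genes gave too little signal to test. The 10 genes with the 5 highest and the 5 lowest day differences kept their sign in all 26 alternatives. Among all 69, 14 changed sign when a time of day was left out (7 without 14 h, 2 without 22 h), each with a difference of at most 0.0947 log2 in size over all arrays and none called. The count of genes at an unadjusted permutation p under 0.05 was 10, 17 with the day as a replicate block (day means removed) and 5 to 12 when 1 array was left out. Adjusted rhythm calls were 0 by permutation in all 22 alternatives, 2 by limma, 0 by limma on the linear scale, 0 to 4 by limma when 1 array was left out (4 without AA46, none in 6 of 12), 4 by limma with day means removed and 4 by limma with array weights (each 4 being Cyp4d21, Cyp305a1, Cyp6a21 and Cyp12d1-d). Of 11156 tested probe sets, limma called 33 in the main fit, 78 without AA46, 99 with day means removed and 104 with array weights. The 2 P450 genes called higher on day 2 became 1 without the filter, 1 without the time-of-day block and 6 with array weights (192 of 11156 tested probe sets). Leaving out 1 array gave 0 to 5: the remaining array of that time of day is then fitted exactly by the block, so that the result is that of leaving out both arrays of 2 h (1), 6 h (0), 10 h (0), 14 h (0), 18 h (0) or 22 h (5, against 170 of 11156 tested probe sets). No gene was called lower in any of the 26 alternatives, and the differences above 0 numbered 50 to 60 (60 of 81 without the filter, and 56 of 69 against 57.3% of all tested probe sets with arrays centred on their medians). Interaction calls, 0 in 13 of 15 alternatives, were 0 to 1 when 1 array was left out and 1 with array weights, both times Cyp6a23. Of 11156 tested probe sets, 149 were called without AA42 and 34 with array weights. The causes were not tested.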
